A study of Mus musculus with 3 samples.

Results

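The genes of 3 guidance systems, the ephrins and Eph receptors, the Slits and Robo receptors, and the netrins and their receptors, were measured in sorted sensory ganglion cells of the mouse embryo. The 41 genes were chosen by name as the ligands and receptors of these systems, with earlier results of these data known. By identifier, 40 of them were matched among the 41388 genes of the count tables. No value is given for Ntn3, whose identifier was not matched. By mean level, the ephrin-A and ephrin-B ligands were the highest subfamilies. The summed level of the ephrins exceeded that of the Eph receptors 5.88-fold on average, with Efna5 alone at 141 ± 145 TPM (SD, n = 3). TPM is a transcript level, a count divided by gene length and scaled to the same total in each library. The 3 matched secreted netrins, without Ntn3, were close to the limit of detection, whereas the netrin receptor gene Neo1 stood at 24.9 ± 13.9 TPM.

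The 3 RNA-seq libraries, named B, C and D, belong to a single group, without another condition to compare. Each is a pool of EGFP-positive cells that were sorted by flow cytometry from dorsal root ganglia (DRG) of lower thoracic to first sacral segments at 12.5 days post coitum. The pools held 340, 300 and 60 ganglia of 17, 15 and 3 embryos in the order B, C, D, all of strain C57BL/6, of both sexes and from different mothers. EGFP reported Ret, which encodes the tyrosine kinase receptor of the GDNF family, and the allele is given as the transgene Tg(Ret-EGFP)SJ/ in the sample labels and as a heterozygous knock-in at the Ret locus in the series text. Cells of reporter-free or wild-type embryos were not analysed here. The sort selects cells by the reporter and not by neuronal identity, and a bulk pool cannot tell apart fewer cells of a type and less RNA per cell. Sequencing depth was 18072199 counts (B), 11666241 counts (C) and 20966139 counts (D).

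Marker lists were read in the same way. All 14 neuron markers were detected, meaning 1 TPM or more in every library, with summed levels of 24180 to 37409 TPM. All 9 glial and Schwann cell precursor markers were also detected, with sums of 1515 to 4793 TPM. Of the other lists, 6 of 8 sympathetic markers were detected (sums of 92.0 to 287 TPM), 5 of 11 mesenchyme and meninges markers (26.3 to 98.3 TPM) and 5 of 9 erythroid and macrophage markers (408 to 2702 TPM). Endothelial and pericyte markers gave 0 of 10 (5.11 to 12.6 TPM), skeletal muscle markers 1 of 7 (7.61 to 27.0 TPM) and spinal cord markers 1 of 10 (2.77 to 5.26 TPM). The detected spinal cord marker was Slc18a3, at 4.73, 4.15 and 1.67 TPM in B, C and D. Olig2, Lbx1 and Dbx1, which define spinal cord progenitors and interneurons, had 0 counts in all 3 libraries. Chat and Pax6 had counts in every library but stayed under 1 TPM. Mnx1, Pax2, Nkx6-1 and Irx3 were also under 1 TPM, with counts in some libraries only.

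Ephrins are membrane-bound ligands that signal through contact between cells. Ephrin-A proteins are held by a lipid anchor and mainly bind EphA receptor tyrosine kinases, and ephrin-B proteins span the membrane and mainly bind EphB receptors. Signals can run both ways, and the system is best known for repelling axons and for sorting cells at boundaries. Slits are secreted proteins that act through Robo receptors. They repel many axons, and in sensory neurons they are also known for promoting branching of central axons. Netrins are laminin-related secreted proteins. They attract axons through DCC and neogenin, and Unc5 receptors, alone or with DCC, turn the response into repulsion. Netrin-G proteins are membrane-anchored relatives that bind NGL adhesion proteins and not DCC.

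Promoter windows are shown first, for the members at the extremes of the levels. The 250 bases before the RefSeq start (build GRCm38.p6) are given for Efna5 (chr17:62881318-62881567, minus strand), the highest member, for Epha3 (chr16:63864176-63864425, minus strand) and Epha7 (chr4:28812881-28813130, plus strand), the highest EphA receptors, and for Robo3 (chr9:37433176-37433425, minus strand), the member with the fewest counts. Capitals mark the GC box, searched as GGGCGG on both strands, and every other base is in lower case, 5′ to 3′ on the strand of the gene.
Efna5: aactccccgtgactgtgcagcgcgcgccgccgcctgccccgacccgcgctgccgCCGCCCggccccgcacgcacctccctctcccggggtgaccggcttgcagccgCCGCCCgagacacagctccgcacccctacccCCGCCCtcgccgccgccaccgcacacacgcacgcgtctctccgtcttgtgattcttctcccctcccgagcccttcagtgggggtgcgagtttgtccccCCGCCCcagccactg
Epha3: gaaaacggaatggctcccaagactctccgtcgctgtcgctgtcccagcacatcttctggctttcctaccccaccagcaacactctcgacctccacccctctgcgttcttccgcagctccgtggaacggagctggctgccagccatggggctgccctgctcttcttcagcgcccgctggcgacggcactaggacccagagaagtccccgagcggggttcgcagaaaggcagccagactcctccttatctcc
Epha7: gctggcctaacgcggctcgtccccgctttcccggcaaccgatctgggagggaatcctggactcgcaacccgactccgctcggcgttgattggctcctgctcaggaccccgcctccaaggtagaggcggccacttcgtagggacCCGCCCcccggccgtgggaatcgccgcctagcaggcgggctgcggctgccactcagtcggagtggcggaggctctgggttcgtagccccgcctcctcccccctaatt
Robo3: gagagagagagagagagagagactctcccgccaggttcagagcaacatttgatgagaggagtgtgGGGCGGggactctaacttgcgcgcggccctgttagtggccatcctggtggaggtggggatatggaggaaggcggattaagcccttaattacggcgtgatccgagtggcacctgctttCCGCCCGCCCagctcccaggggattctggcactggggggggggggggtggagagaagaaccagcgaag
The Efna5 window held 4 GC boxes, 32 CpG dinucleotides and 74.8% G and C. The Epha3 window held no GC box and 16 CpG, and the Epha7 window held 1 GC box and 25 CpG. The Robo3 window held 3 GC boxes, 2 of them overlapping by sharing bases, and 12 CpG, so a GC box was present in the member with almost no counts and absent in a well-detected one.

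RefSeq windows were found for 35 members, and 32 of them began within 500 bases of the gene start in the count tables. Over those 32 the median was 17.5 CpG, against 10 in 21262 windows of protein-coding genes. The protein-coding windows were not picked by distance to the gene start in the count tables, so the sets were not chosen alike. The 20 detected members had a median of 19.5 CpG, and the 12 others had 13.5. A GC box occurred in 22 of the 32 (68.8%), against 42.6% of protein-coding windows. CCAAT on either strand occurred in 37.5% against 35.4%. CANNTG, the E-box, occurred in 43.8% against 62.8%, TATAAA in 6.25% against 11.6% and TAAT in 34.4% against 49.4%. These are counts of letters in a window and no measure of binding.

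Of the 40 matched genes, 23 (57.5%) were detected, compared with 50.2% of 21397 protein-coding genes and 28.7% of all genes. Another 12 were under 1 TPM in every library, and Epha2, Epha5, Slit1, Slit3 and Dcc passed that level in some libraries only. The plot of levels by gene shows all 40. The summed level of the members was 213, 189 and 581 TPM in the order B, C, D. TPM of most genes was higher in D: the median log2 TPM ratio of D to B and C was 0.65 over the 11896 detected genes, whereas the edgeR ratio of the same genes was -0.08. Levels are therefore compared between genes within a library below, TPM values of each library are given as a description, and libraries are compared by edgeR's ratios of counts.

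**Figure D1:**
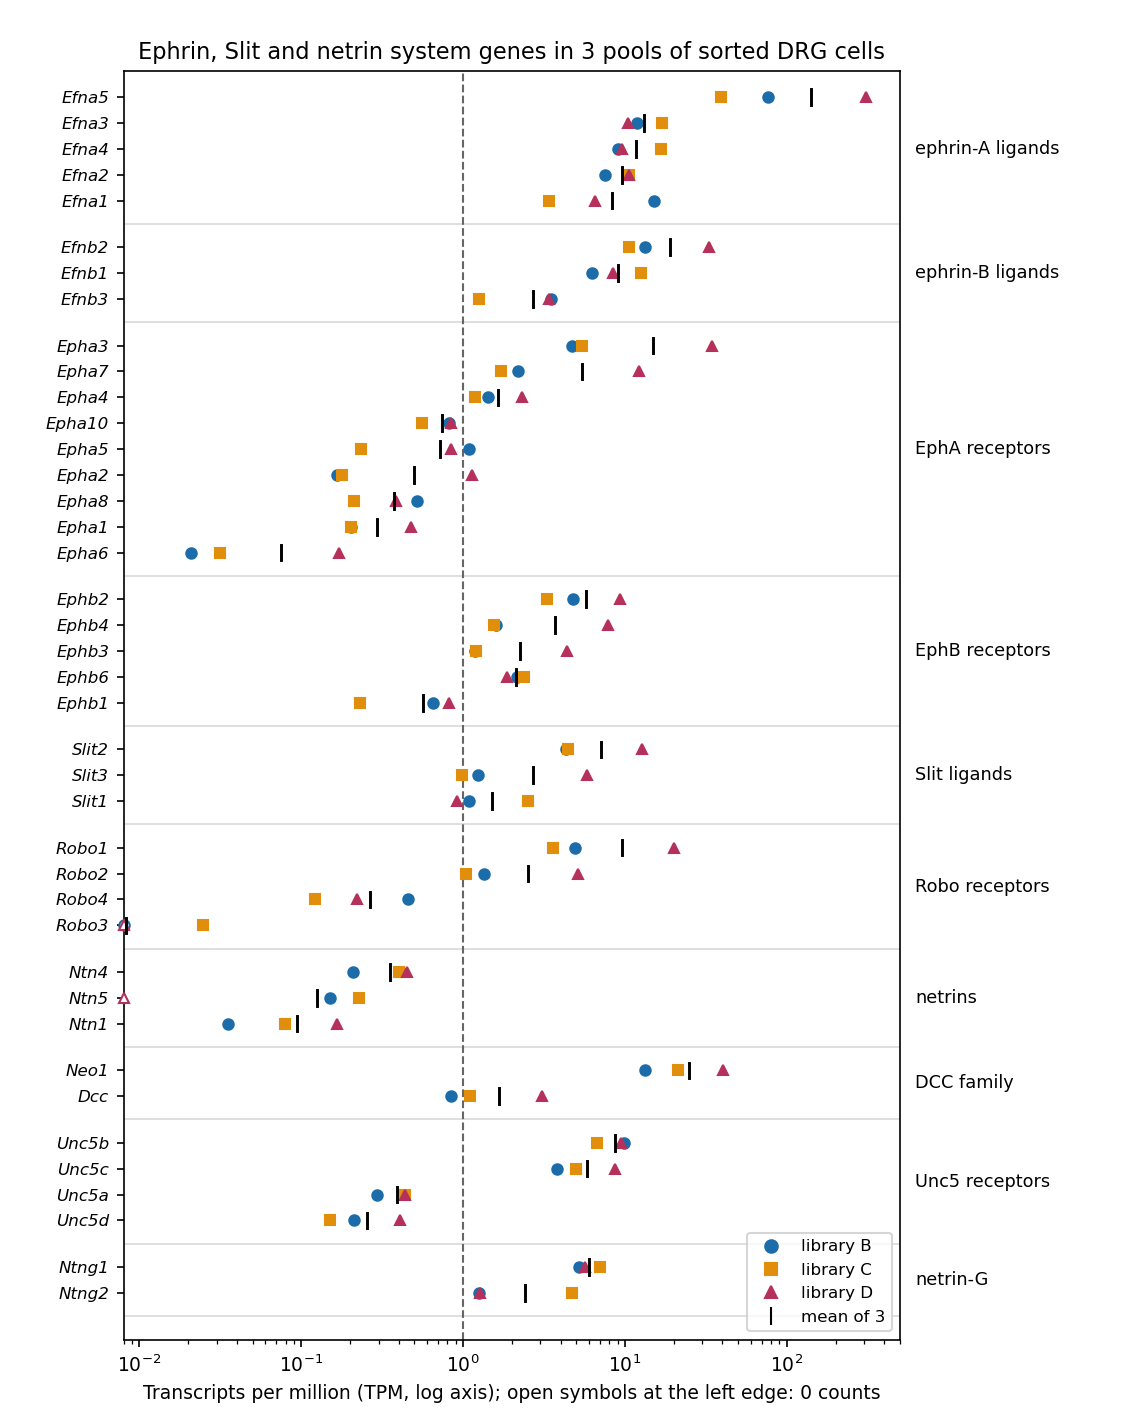
Levels of the 40 matched guidance genes, in TPM on a log axis, with 1 symbol per library (B, C, D), the mean as a black tick and the detection limit of 1 TPM as a dashed line; genes are grouped by subfamily and ordered by mean. Efna5 lies highest at 76.9, 39.4 and 307 TPM in B, C and D, and Robo3 has 1 count, in library C.

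Ephrin-A ligands summed to 120 TPM in B, 86.9 TPM in C and 344 TPM in D (184 ± 140, SD, n = 3), and all 5 genes were detected. Efna5, the gene of ephrin-A5 (GRCm38 chromosome 17, 62604184 to 62881317), gave 2798 counts in library B, 953 in C and 9540 in D, which is 76.9, 39.4 and 307 TPM. Library D was high and C low, and the 3 values were far apart. By mean it ranked 1145th among 23553 genes with a count in any library. It held 64.0%, 45.3% and 89.2% of the ephrin-A sum and 36.6 ± 16.0% of the summed level of all 40 members. Its log2 ratio to the next gene, Efna3, was 2.93 ± 1.84, positive in 3 of 3 libraries.

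The remaining ephrin-A genes were close to each other by mean. Within libraries Efna1 was the highest of them in B and the lowest in C. Efna3 stood at 11.8, 16.9 and 10.4 TPM in B, C and D (13.1 ± 3.42), and Efna4 at 9.01, 16.6 and 9.57 TPM (11.7 ± 4.22). In both genes C was the highest library. Efna3 was the higher of the pair in 3 of 3 libraries, but the mean log2 ratio of 0.18 ± 0.19 did not exceed its SD, so they were not called apart. Efna2 had 9.56 ± 1.79 TPM, and Efna1 had 15.0 TPM in B, 3.37 TPM in C and 6.52 TPM in D. Efna1, Efna3 and Efna4 are neighbours on the minus strand of chromosome 3 (89271733 to 89281142, 89313899 to 89322965 and 89333390 to 89338028 in GRCm38). Efna1 was highest in B where its neighbours were highest in C. Efna3 and Efna4 share 344 and 168 exon bases with other genes, Gm15998 and 4731419I09Rik, and reads there are uncertain. Sharing was counted on either strand, and the library kit does not mark strand.

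Ephrin-B ligands summed to 23.0, 24.5 and 44.8 TPM in B, C and D (30.8 ± 12.2), with all 3 genes detected. Efnb2 was at 13.2, 10.6 and 33.1 TPM, and Efnb1, an X-linked ephrin, was at 6.30, 12.6 and 8.38 TPM. Efnb2 was the higher of the pair in B and D and the lower in C, and their log2 ratio of 0.94 ± 1.12 did not separate them. Efnb3 was lower, at 3.48, 1.26 and 3.38 TPM, and Efnb1 exceeded it in 3 of 3 libraries (log2 ratio 1.83 ± 1.31). Ephrin-A genes exceeded ephrin-B genes in sum by 2.39 ± 0.56 (log2) in 3 of 3 libraries. The exact two-sided sign-flip test gave p = 0.25 for each ratio or pair that kept its sign over the 3 libraries, the smallest value it can give, so none could pass 0.05.

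EphA receptors summed to 11.1, 9.75 and 52.9 TPM in B, C and D (24.6 ± 24.5), and only 3 of 9 genes were detected. Epha3, an EphA receptor that binds ephrin-A5 with high affinity (GRCm38 chromosome 16, 63543538 to 63864158), was at 4.70, 5.45 and 34.4 TPM. Libraries B and C were close together and D stood far above them. Epha7 (chromosome 4, 28813131 to 28967499), which also prefers ephrin-A ligands, was at 2.18, 1.70 and 12.3 TPM with the same layout. Epha4, which binds ephrins of both classes, was at 1.42, 1.18 and 2.32 TPM. The order Epha3, Epha7, Epha4 kept its sign in all 3 libraries, with log2 ratios of 1.43 ± 0.29 and 1.18 ± 1.06 between neighbours. Epha3 held 54.4 ± 11.5% of the EphA sum.

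The other EphA genes were near or under the detection limit. Epha5 passed 1 TPM in B alone (1.09, 0.233 and 0.841 TPM in B, C and D), and Epha2 passed it in D alone (0.166, 0.178 and 1.14 TPM). Epha10, a receptor with an inactive kinase domain, averaged 0.739 ± 0.160 TPM, Epha8 0.372 ± 0.153 TPM and Epha1 0.294 ± 0.157 TPM. The neighbours in the order Epha10, Epha5, Epha2, Epha8 and Epha1 did not differ beyond their spread. Epha6 had 0.0747 ± 0.0841 TPM.

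EphB receptors summed to 10.4, 8.64 and 24.2 TPM in B, C and D (14.4 ± 8.52), with 4 of 5 genes detected. Ephb2 was at 4.80, 3.28 and 9.26 TPM and held 40.8 ± 4.70% of the sum, or 63.9% when counted without division by length. Ephb4, known mainly as the venous partner of ephrin-B2, was at 1.60, 1.55 and 7.86 TPM, again with B and C close and D far above. Ephb3 was at 1.18, 1.19 and 4.39 TPM. Ephb2 exceeded Ephb4 and Ephb4 exceeded Ephb3 in every library (log2 0.97 ± 0.68 and 0.55 ± 0.25). Ephb6, which lacks kinase activity, was at 2.15, 2.39 and 1.86 TPM and had the lowest coefficient of variation of the detected members, 12.5%. Ephb1 stayed under the limit at 0.567 ± 0.303 TPM.

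Ligand sums exceeded receptor sums in the whole ephrin system. The log2 ratio of ephrins over Eph receptors was 2.74, 2.60 and 2.34 in the 3 libraries (2.56 ± 0.20), so the values lay close together. For the A class it was 3.10 ± 0.37 and for the B class 1.18 ± 0.31, positive in 3 of 3 libraries in both. Counted without division by length (CPM, counts scaled to the library total), the ratio was 1.46 for the whole system, 2.04 for the A class and 0.15 for the B class. EphA exceeded EphB by 0.10, 0.17 and 1.13 in B, C and D (0.47 ± 0.57), so the classes were nearly level in B and C.

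Slit ligands summed to 6.67, 7.92 and 19.4 TPM in B, C and D (11.3 ± 7.04), and Slit2 was the one detected gene of 3. Slit2 was at 4.35, 4.42 and 12.7 TPM and held 62.1 ± 5.38% of the sum. Slit3 was at 1.24, 0.989 and 5.84 TPM and Slit1 at 1.09, 2.51 and 0.920 TPM. Slit3 was high in D and Slit1 was high in C, and the log2 ratio of the pair, 0.51 ± 2.02, had no fixed sign. Slit2 exceeded Slit3 in 3 of 3 libraries (1.70 ± 0.53).

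Robo receptors summed to 6.75, 4.78 and 25.4 TPM in B, C and D (12.3 ± 11.4). Robo1 (GRCm38 chromosome 16, 72663149 to 73046095) was at 4.94, 3.59 and 20.1 TPM, and Robo2 (chromosome 16, 73892306 to 74411825) was at 1.35, 1.04 and 5.15 TPM. Both are receptors for Slits on axons, and both were low in B and C and high in D. Their log2 ratio was 1.87, 1.79 and 1.96 in the 3 libraries (1.88 ± 0.09), the smallest SD of the 28 neighbouring pairs. Robo1 held 75.8 ± 2.89% of the Robo sum, or 61.7% when counted without division by length. Robo3, known for midline crossing of commissural axons of the spinal cord and hindbrain, had 1 count in C and 0 in B and D. For the libraries at 0 the upper limit, set at 3 counts, is 0.0492 TPM in B and 0.0575 TPM in D, for counting error only. Robo4, an endothelial receptor, was at 0.459, 0.122 and 0.221 TPM, in the same order of libraries as the endothelial and pericyte marker sums of 12.6, 5.11 and 7.37 TPM, and the part of such cells in the Robo4 level was not tested. Robo over Slit had log2 ratios of 0.02, -0.73 and 0.39 (-0.11 ± 0.57), with no fixed sign, and without C its mean was 0.20.

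With Ntn3 not matched and so left out, the netrins were the lowest subfamily. The 3 matched secreted netrins summed to 0.393, 0.707 and 0.616 TPM in B, C and D (0.572 ± 0.161), and none was detected. Ntn1, the classical floor plate netrin, had 2, 3 and 8 counts, which is 0.0353, 0.0797 and 0.165 TPM. Ntn4 had 7, 9 and 13 counts (0.353 ± 0.129 TPM). Ntn5 had 3, 3 and 0 counts, and 0 counts in D allow up to 0.176 TPM. It also shares 519 exon bases with Sec1. Netrin protein made by neighbouring tissue is not read by this assay.

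Netrin receptors were well above the matched netrins. Neo1, the gene of neogenin, which also binds repulsive guidance molecules (GRCm38 chromosome 9, 58874679 to 59036441), was at 13.4, 21.1 and 40.3 TPM in B, C and D. It was the second highest of the 40 members by mean. Dcc, the main receptor of netrin attraction, was at 0.838, 1.10 and 3.09 TPM, under the limit in B. Neo1 exceeded Dcc by 3.99, 4.27 and 3.71 (log2, 3.99 ± 0.28) and held 94.0 ± 1.09% of their sum. The DCC family and the Unc5 family together exceeded the matched netrins by 6.15 ± 0.53 (log2), 70.9-fold, in 3 of 3 libraries. This ratio rests on a ligand sum made of few counts and without Ntn3, so it does not cover all netrins. Without division by length it was 7.18 (log2).

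Of the Unc5 receptors, Unc5b was at 9.85, 6.72 and 9.40 TPM in B, C and D and Unc5c at 3.80, 4.95 and 8.69 TPM. Unc5b was clearly ahead in B and nearly level with Unc5c in D, and the pair was not separated (log2 ratio 0.64 ± 0.65). Unc5b held 58.0 ± 10.3% of the Unc5 sum, or 41.8% when counted without division by length. Unc5a and Unc5d, at 0.389 ± 0.0839 and 0.256 ± 0.135 TPM, were under the limit, and Unc5c exceeded Unc5a by 3.84 ± 0.43 (log2). The DCC family sum was level with the Unc5 sum in B (log2 ratio 0.00) and above it in C and D (0.86 and 1.20).

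The netrin-G genes were both detected. Ntng1 was at 5.19, 7.02 and 5.67 TPM in B, C and D (5.96 ± 0.948), and Ntng2 at 1.25, 4.68 and 1.27 TPM. Both were highest in C on the TPM scale, and Ntng2 was nearly equal in B and D. By edgeR's ratios of counts Ntng1 was at -0.82 ± 0.53 in D and 0.77 ± 0.89 in C, and neither passed the test (adjusted p of 0.41 and 1.00). Ntng1 exceeded Ntng2 in 3 of 3 libraries (log2 1.60 ± 0.88) and held 74.1 ± 12.2% of their sum. Ntng2 shares 558 exon bases with 6530402F18Rik.

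**Figure D2:**
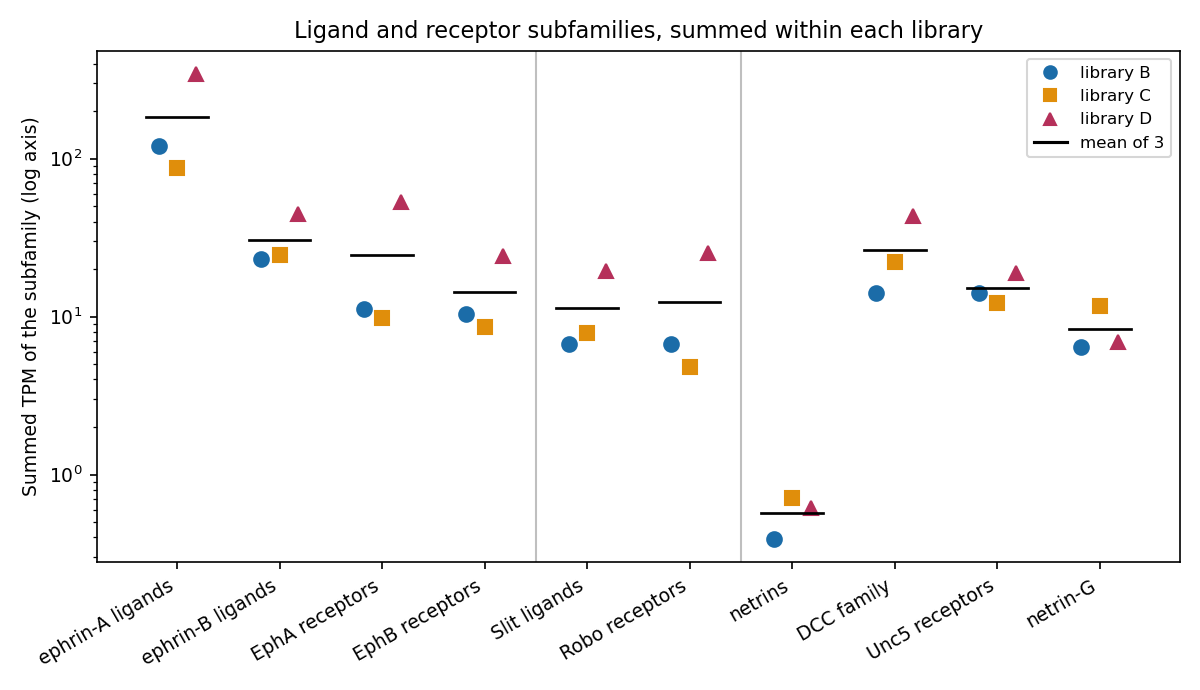
Summed TPM of each ligand and receptor subfamily on a log axis, with 1 symbol per library (B, C, D) and the mean of 3 as a bar; vertical lines separate the ephrin, Slit and netrin systems. Ephrin-A sums of 86.9 to 344 TPM lie above every other subfamily. Netrin sums of 0.393 to 0.707 TPM, which lack the unmatched Ntn3, lie below every other.

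Across all subfamilies, 16 of 28 neighbouring pairs in the order of levels kept their sign in all 3 libraries with a mean beyond its SD. The order was taken from the mean TPM of the same libraries, which favours a kept sign. The count is therefore a description. Detected members had a median coefficient of variation of 55.7%, from 12.5% (Ephb6) to 114% (Epha3), against 44.8% for detected protein-coding genes. Without library D the median of the members was 22.3%, from B and C alone. No such value was computed for protein-coding genes, so this fall cannot be called particular to the members.

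Each library was then compared with the other 2 by edgeR's quasi-likelihood test over 15727 genes, a design with 1 residual degree of freedom. The low-count filter kept 36 members and removed Epha6, Robo3, Ntn1 and Ntn5. Epha1, Epha2 and Robo4 met the filter's level in 1 library only, which was D for Epha1 and Epha2. Counts over the tested members are therefore a description. After Benjamini-Hochberg adjustment edgeR called 0 members in D at an adjusted p under 0.05 and 0% of all genes. At an unadjusted p under 0.05 there were 7 members, all higher in D, where 19.4% of all genes passed in either direction and 11.2% passed as higher. DESeq2 called 1 member in D, with 4.53% of all genes called, and edgeR with no filter called 3, with 6.51% called. The median log2 ratio was 0.16 over the 36 members and -0.02 over all genes, with 19 members higher and 17 lower. On the TPM scale, 13 of the 23 detected members were higher in D than in both other libraries and 2 were lower, where the shares of all detected genes were 63.1% and 19.2%.

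The 7 members were 2 EphA receptors, 1 ephrin, 1 EphB receptor, both axonal Robo receptors and 1 Slit. The log2 ratio of Epha3 in D was 2.06 ± 0.46 (approximate SE; edgeR adjusted p = 0.18). DESeq2 gave it an adjusted p of 0.034, and edgeR with no filter 0.0064. The Epha7 ratio was 1.96 ± 0.47 (edgeR adjusted p = 0.19), and with no filter its adjusted p was 0.015. The Efna5 ratio was 1.71 ± 0.49 (edgeR adjusted p = 0.20), with 0.0090 when no filter was used. Slit3 (1.68 ± 0.56), Ephb4 (1.62 ± 0.56), Robo1 (1.54 ± 0.47) and Robo2 (1.41 ± 0.49) had adjusted p-values of 0.21 to 0.23 in edgeR. Ephb3 had a ratio of 1.18 ± 0.57. Epha2 had one of 2.01 ± 0.97 from few counts, but it met the filter's level in D only. Its ratio is therefore no support for a higher level in D. At the other end were Ntng2 (-1.94 ± 1.00), Slit1 (-1.67 ± 0.83), Efna3 (-1.17 ± 0.58), Efna4 (-1.13 ± 0.68) and Ntng1 (-0.82 ± 0.53), none of which passed edgeR's test (adjusted p of 0.30 to 0.41). Library C bore on these values. Against B alone they were -0.63 for Ntng2, -0.88 for Slit1, -0.83 for Efna3, -0.57 for Efna4 and -0.53 for Ntng1, and against C alone they were -2.61, -2.18, -1.44, -1.54 and -1.06. The Slits thus lay on both sides of 0 in D, with Slit3 above it and Slit1 below.

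**Figure D3:**
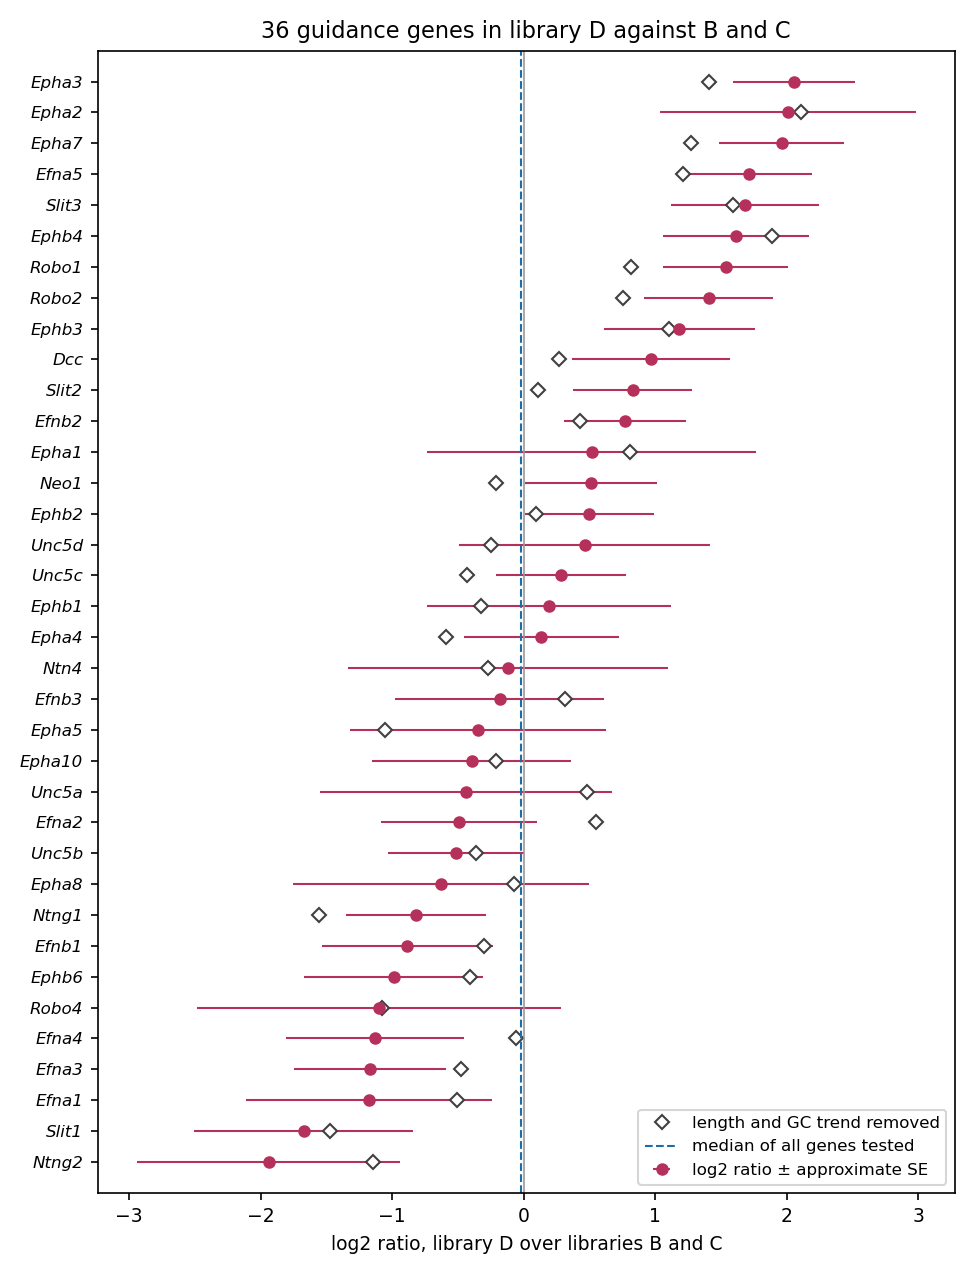
Log2 ratio of library D over libraries B and C for the 36 tested guidance genes (filled points, with approximate SE as bars), the same ratio with a length and GC trend removed (open diamonds), and the median of all genes tested (dashed line). Epha3 lies highest at 2.06 and Ntng2 lowest at -1.94, and no member passed the adjusted threshold in edgeR.

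Gene length and base composition moved with the D ratio. Over the 13703 protein-coding genes tested, Spearman's rho between the ratio and counted length was 0.47, and over the 36 members it was 0.44. Against transcript GC content it was -0.36 and -0.51. The median ratio ran from -1.12 in the shortest of 10 length classes (median 1170 bases) to 0.68 in the longest (median 10702 bases). The members' median length was 5756 bases, against 3856 bases for protein-coding genes. With a smooth trend in length and GC removed per library, the members' median was -0.07, the same as that of all genes. In that setting 17 members were higher in D and 19 lower. The removal was not complete, as rho with length was still 0.11 over the protein-coding genes and 0.01 over the members. Epha3 then had a ratio of 1.41 (2.06 before), Epha7 1.27 (1.96), Efna5 1.21 (1.71) and Slit3 1.59 (1.68), all nearer to 0. Ephb4 moved the other way, from 1.62 to 1.89. Robo1 and Robo2, which like Epha7 are long genes, had 0.81 and 0.76, also nearer to 0 than the 1.54 and 1.41 before. Efna4 and Efna3, which are short genes, were at -0.06 and -0.48, also nearer to 0, whereas Ntng1 was at -1.55.

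**Figure D4:**
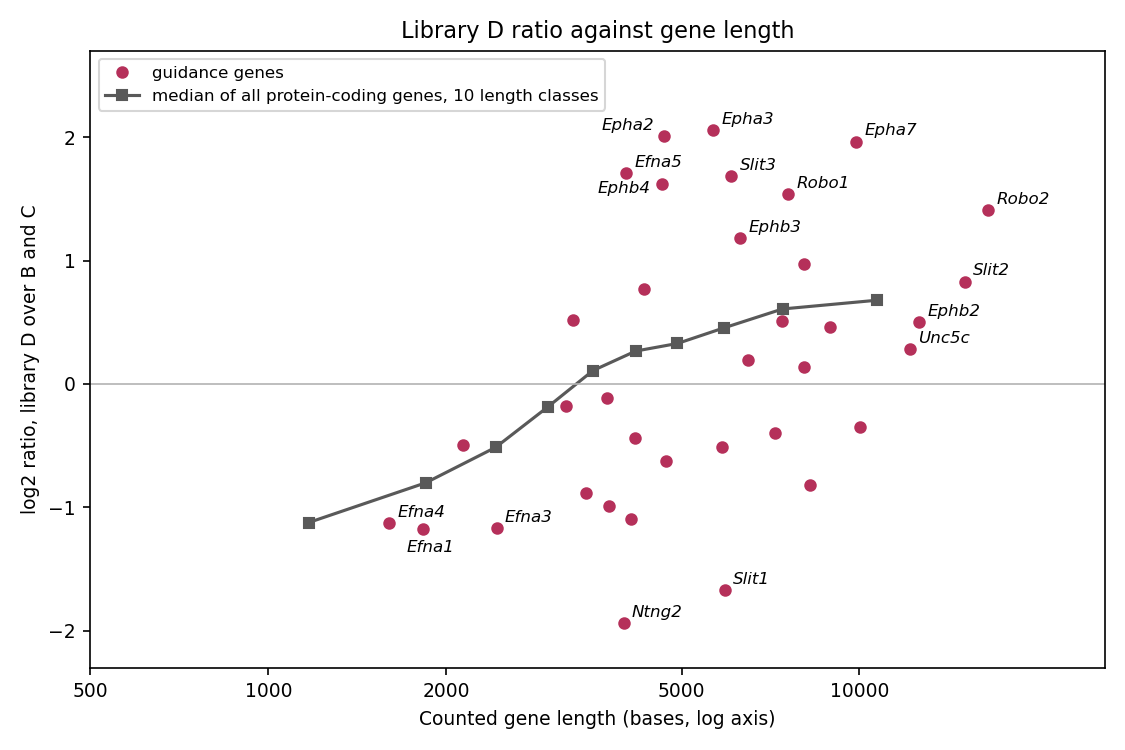
Log2 ratio of library D over B and C against counted gene length in bases (log axis) for the 36 tested guidance genes (circles) and the median of protein-coding genes in 10 length classes (squares). The class medians run from -1.12 to 0.68, with Epha3, Epha7, Efna5, Slit3 and Ephb4 above the line and Slit1 and Ntng2 below it.

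Marker lists of other cell types were read in the same comparison, and no gene of them was called by edgeR in any library. Among all genes tested, 49.5% were higher in D, with a median log2 ratio of -0.02. No trend in gene length or GC was removed from the marker ratios. Of the 9 glial markers, 7 were higher and 2 lower in D (median log2 ratio 0.89), with summed levels of 3054, 1515 and 4793 TPM in B, C and D. Of the 14 neuron markers, 3 were higher and 11 lower (median -0.64). All 8 sympathetic markers were lower (median -2.19), as were 7 of 8 tested erythroid and macrophage markers (median -2.70). Of 9 tested mesenchyme markers 4 were higher and 5 lower, with sums of 32.2, 26.3 and 98.3 TPM, and in D most of it came from the collagens Col1a2 and Col3a1. Muscle marker sums were 26.1, 7.61 and 27.0 TPM. The part of these cells in the member ratios was not tested. The number of ganglia and embryos behind a library cannot be told apart from the library itself.

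Library C and library B gave no called member. In C, edgeR called 0 members and 0.782% of all genes, and the median log2 ratio was -0.48 over the members and -0.11 over all genes. Ntng2 was the 1 member with an unadjusted p under 0.05 (log2 ratio 2.28 ± 0.98; edgeR adjusted p = 0.53), where 6.91% of all genes passed. Slit1 (1.68 ± 0.99), Efna4 (1.23 ± 0.92), Efnb1 (1.21 ± 0.89) and Efna3 (0.97 ± 0.89) came next among the higher ones. The lower ones with the smallest p were Efna5 (-1.69 ± 1.04), Epha7 (-1.46 ± 0.98), Epha5 (-1.70 ± 1.19), Efna1 (-1.41 ± 1.05) and Robo1 (-1.21 ± 0.95). In B, edgeR called 0 members and 0% of all genes, and at an unadjusted p under 0.05 it gave 0 members and 1.11% of all genes. The median there was -0.38 over the members and -0.18 over all genes, and with D left out it was -0.0653 for B and 0.0653 for C. The higher ones with the smallest p there were Efna1 (1.95 ± 1.11), Epha5 (1.47 ± 1.21), Robo4 (1.73 ± 1.74), Efnb3 (0.99 ± 1.20) and Epha8 (1.12 ± 1.58). The lower ones were Epha3 (-1.56 ± 1.19), Epha7 (-1.15 ± 1.16), Ntng2 (-1.20 ± 1.28), Ephb4 (-1.06 ± 1.22) and Epha2 (-1.47 ± 1.72). DESeq2 also called 0 members in either library, with 0.00636% of all genes called in B and 1.13% in C. The 3 comparisons use the same libraries, and their ratios are not independent.

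The signalling partners of the 3 systems were mostly present. Of 25 Eph signalling genes 21 were detected, of 25 Slit and Robo partners 23, and of 23 matched netrin partners 21. Among Eph partners the highest were Adam10, a protease that cleaves ephrins, at 23.2, 18.4 and 123 TPM in B, C and D, the kinase gene Fyn (38.6 ± 26.0 TPM), Chn1, the gene of a Rac-inactivating protein downstream of EphA4 (37.6 ± 8.37 TPM), and the adaptor gene Nck1 (20.8 ± 3.49 TPM). The log2 ratio in D was 1.87 ± 0.42 for Adam10, 0.83 ± 0.44 for Fyn, -0.36 ± 0.49 for Chn1 and -0.32 ± 0.47 for Nck1.

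Among Slit and Robo partners, Nell2, whose product is a Robo3 ligand, was highest at 92.0, 58.5 and 270 TPM in B, C and D (140 ± 114), next to the near absence of Robo3 counts. The kinase gene Pak1 followed (83.4 ± 33.1 TPM), then Gpc1, the gene of a heparan sulfate proteoglycan that binds Slit (56.1 ± 43.0 TPM), and Flrt3, which encodes a Robo1-binding membrane protein (19.9, 9.22 and 124 TPM). The D ratio was 1.15 ± 0.44 for Nell2, 0.21 ± 0.43 for Pak1, 1.04 ± 0.45 for Gpc1 and 2.41 ± 0.54 for Flrt3. Of the netrin partners, the neuronal tubulin gene Tubb3, whose product interacts with DCC, had 12294 ± 4861 TPM. The actin regulator gene Cyfip2 had 47.0 ± 39.2 TPM and the lipid transfer gene Pitpna 35.0 ± 14.5 TPM. Rgmb, which encodes a neogenin ligand, had 31.7 ± 21.9 TPM. By D ratio Tubb3 was at -1.26 ± 0.42, Cyfip2 at 1.22 ± 0.41, Pitpna at -0.71 ± 0.66 and Rgmb at 0.77 ± 0.61. Among all genes tested, 49.5% were higher in D, with a median log2 ratio of -0.02. Gene length moved with the D ratio, and its part in the partner lists was not tested. In D, 15 of 24 tested Eph partners were higher (median log2 ratio 0.59), 21 of 25 Slit and Robo partners (0.54) and 14 of 22 netrin partners (0.22). EdgeR called none of them in B, C or D, and 7 of the 24, 6 of the 25 and 5 of the 22 had an unadjusted p under 0.05 in D, where 19.4% of all genes did.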

How the data were processed

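RNA of 3 pools was amplified with a SMARTer low-input kit, which keeps no strand, per the labels' protocols. For each library the authors deposited raw counts, CPM (counts scaled to the table total), RPKM (CPM divided by length) and gene lengths. Named in the submitters' processing notes are Subread, featureCounts 1.4.5 and the build GRCm38.p2, with no roles; the strand setting is not given in the sources used here. Only counts and lengths were used. The deposited CPM and RPKM were recomputed from them and did not differ for any gene.

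TPM was computed over all 41388 genes. Within-library log2 ratios are given as mean ± SD with an exact two-sided sign-flip test. Neighbours in the order of levels were called apart when the log2 ratio had the same sign in all libraries and its mean exceeded its SD. Each library was compared with the other 2 by the quasi-likelihood test of edgeR 4.0.16 after TMM scaling and filterByExpr, with Benjamini-Hochberg adjusted p under 0.05 as the threshold. The lone library is assumed to have the spread of the rest. Approximate standard errors are the log2 ratio divided by the root of F. The pools came from different embryos, and p-values measure the spread between such pools with spread borrowed across genes. The fit of D was tried on simulated counts without a length or GC trend, which cannot show its error rates in these data. Alternatives were DESeq2 1.42.0, its size factors, other filters, limits and units, each library left out, and an offset for gene length and transcript GC, smoothed in each library with mgcv 1.9.3 over genes whose mean count reached 10. GC came from the longest GENCODE transcript. Of the members, 10 share exon bases with another gene, and reads there are uncertain.

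The named genes were every member, the 3 highest detected members of each subfamily by library, every called member of a library comparison, the 5 higher and 5 lower tested members with the smallest p, and the 4 highest genes of each partner list. Robo2 and Ephb4, under an unadjusted p of 0.05, Epha2 and Ephb3 were added after their values were seen. The members and all lists were chosen with earlier results of these data known. The sequences are from RefSeq.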

Additional observations from a re-analysis of the deposited data

How the results depend on the processing

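Of 222 values recomputed under other settings, 200 stayed on their side of the test's threshold or, for untested values, within the tolerance set for them, though several of these still differed in size. After removal of the trend in length and GC, the members' median ratio in D went from 0.16 to -0.07, Efna4 from -1.13 to -0.06 and Robo1 from 1.54 to 0.81. EphA over EphB was 0.14 without D. At a limit of 5 TPM, 9 members were detected and their median coefficient of variation was 35.1%. Left out in turn, each library gave 24 detected members and 17 to 21 neighbouring pairs apart. Detection and a kept sign are easier to meet in fewer libraries, so these counts do not test those from all libraries. The median coefficient of variation was then 22.3% to 64.8%, the lowest without D. Counted as CPM in place of TPM, the share was 63.9% for Ephb2, 61.7% for Robo1, 80.3% for Slit2 and 41.8% for Unc5b. The log2 ratios in CPM were 1.46 for ephrins over Eph receptors, 2.04 for the A class, 0.15 for the B class and 7.18 for netrin receptors over netrins. Without the members that share exon bases, Ephb2 held 55.5% and the B class ratio was 1.62. Robo over Slit changed sign without C, to 0.20, and ranged from -0.36 to 0.20. With D left out, the members' median log2 ratio went from -0.38 to -0.0653 for B and from -0.48 to 0.0653 for C. In D, DESeq2 called 1 member, Epha3, and edgeR without a filter called 3, Epha3, Epha7 and Efna5, where the reported test called 0; the cause was not tested.

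Leaving out single libraries, the members' median ratio ranged from 0.17 to 0.33 in D, from -0.33 to 0.07 in C and from -0.17 to -0.07 in B, where those with all libraries were 0.16, -0.48 and -0.38. These are 1 library against 1 and have no test. No paired analysis was possible because the samples form 1 group. Depth limits the netrins, Robo3 and Epha6, which rest on few counts. With 1 residual degree of freedom, a call that is missed does not show that libraries are alike.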
